A study of Mus musculus with 12 samples.

Results

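The genes described here are 39 type I interferon response genes, namely receptor chains, transcription factors, nucleic acid sensors, the ISG15 system, antiviral effectors and other interferon-induced genes. Of the probe sets that the annotation of the Affymetrix Mouse Genome 430 2.0 array gives to a gene alone, the one of highest mean intensity over the arrays stood for it. Of the 39 genes, 37 had such a probe set, out of 18193 genes and 45037 probe sets on the array. Isg15 shared its single probe set with another gene, and Ifi44 is unnamed in the annotation used here, so neither was analysed here.

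Expression had been measured in CD4 single positive (SP) thymocytes, the helper lineage cells that finish their maturation in the thymic medulla before they leave for the periphery. Thymi of C57BL/6 mice aged 6 to 8 weeks were pooled, CD8-bearing cells were killed with antibody and complement, and CD4+CD8-CD25-NK1.1- cells were sorted into 4 subsets. SP1 cells carried 6C10 and CD69 but no Qa-2 (Qa-2-6C10+CD69+). SP2 cells lacked 6C10 and kept CD69 (Qa-2-6C10-CD69+), SP3 cells lacked all 3 markers (Qa-2-6C10-CD69-), and SP4 cells carried Qa-2 alone (Qa-2+6C10-CD69-). There were 3 arrays per subset, 12 in all, and no treatment was given. All subsets were thus sorted to lack CD25+ and NK1.1+ cells, but the sort for the arrays did not remove CD44-high T cells, so SP4 could hold mature T cells that had returned from the periphery. RNA came from pools of mice and from bulk cells, so the spread between arrays is not that between animals, and fewer cells of a type cannot be told apart from less RNA per cell.

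Type I interferons bind a receptor made of the chains IFNAR1 and IFNAR2, whose kinases are JAK1 and TYK2. Among the parts of the factor ISGF3, which they switch on, are STAT2 and IRF9. ISGF3 binds the interferon-stimulated response element (ISRE) and turns on a large set of antiviral genes. Interferon-gamma acts through IFNGR1 and IFNGR2 and the gamma-activated site (GAS), another promoter element, and the induced sets overlap. The thymic medulla is known to hold a steady low level of type I interferon signalling in uninfected mice.

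Probe set intensities had been normalized between arrays, and array medians lay between 30.5 and 32.8. Levels below are linear intensities in the order of replicates 1, 2 and 3, and differences are of log2(intensity + 16) with their standard error (SE), which understates the change of dim genes. Each difference was tested with limma over all probe sets, and a gene was called at an adjusted p under 0.05. The replicate numbers pair the arrays, and the 4 arrays of replicate 3 stood apart from the others. Values of a second fit, blocked by replicate number, are therefore also given where that changed the call of a member. Where a pair of adjusted p is given, the first is without and the second with the block. T cell and CD4 lineage markers were present in every subset, with a summed intensity of Cd4, Cd3e, Cd3d and Zbtb7b between 6660 and 8950 on the 12 arrays. Most of that sum was Cd3d, between 4849 and 6540. Cd4 itself lay between 423 and 1027 and Zbtb7b between 161 and 255.

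From SP1, the least mature subset, to SP4, the most mature one, most interferon response genes had a higher level. The members were chosen with earlier results of these data known. Their shares beside those of all genes, here and below, are therefore a description and not a test. Without the block, 12 of 37 members (32.4%) were called higher in SP4 and 0 lower, against 1.23% of all genes higher and 0.297% lower (1.52% in either direction). Those called were the transcription factors Irf7 and Irf9, the RNA sensor Ifih1, the regulators Usp18, Trim30a and Parp14, and the antiviral effectors Ifit2, Ifit3, Oas2, Oasl2, Mx1 and Samd9l. With the block, 23 were called higher and 1, Ifngr2, lower, which is 64.9% of the members, against 4.14% of all genes higher and 1.89% lower (6.04% in either direction). All 12 genes called without the block were among the 23. The median log2 difference over the 37 members was 0.68, a 1.60-fold higher level, against -0.01 over all genes, and 35 members (94.6%) lay above 0 against 45.0% of all genes. Within replicates 1, 2 and 3 taken alone, the member medians were 0.65, 0.73 and 0.68. In 21 of 37 members, all 3 SP4 arrays exceeded all 3 SP1 arrays, which was the case for 7.34% of all genes, and 32 were higher in SP4 in each replicate pair, against 18.1% of all genes. Every member had a mean intensity of at least 50, while all genes include dimmer ones. The shares thus do not compare genes of like intensity. Markers of innate-like and of activated or memory T cells were higher in SP4 too, with the values given further on, and their part in these differences was not tested.

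The count without the block depended on single arrays. It was 3 without SP1 replicate 1, 4 without SP4 replicate 1, 5 without SP4 replicate 2, and 7 without SP1 replicate 2, SP1 replicate 3 or SP3 replicate 2. Ifih1, Ifit3 and Oas2 kept their calls whichever of the 12 arrays was left out. With the block, the count of 24 fell to 15 without SP1 replicate 1. In a fit to the 6 arrays of SP1 and SP4 alone, limma called 0 members, with 20 at an unadjusted p under 0.05 and 61 of all 18193 genes called.

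**Figure D1:**
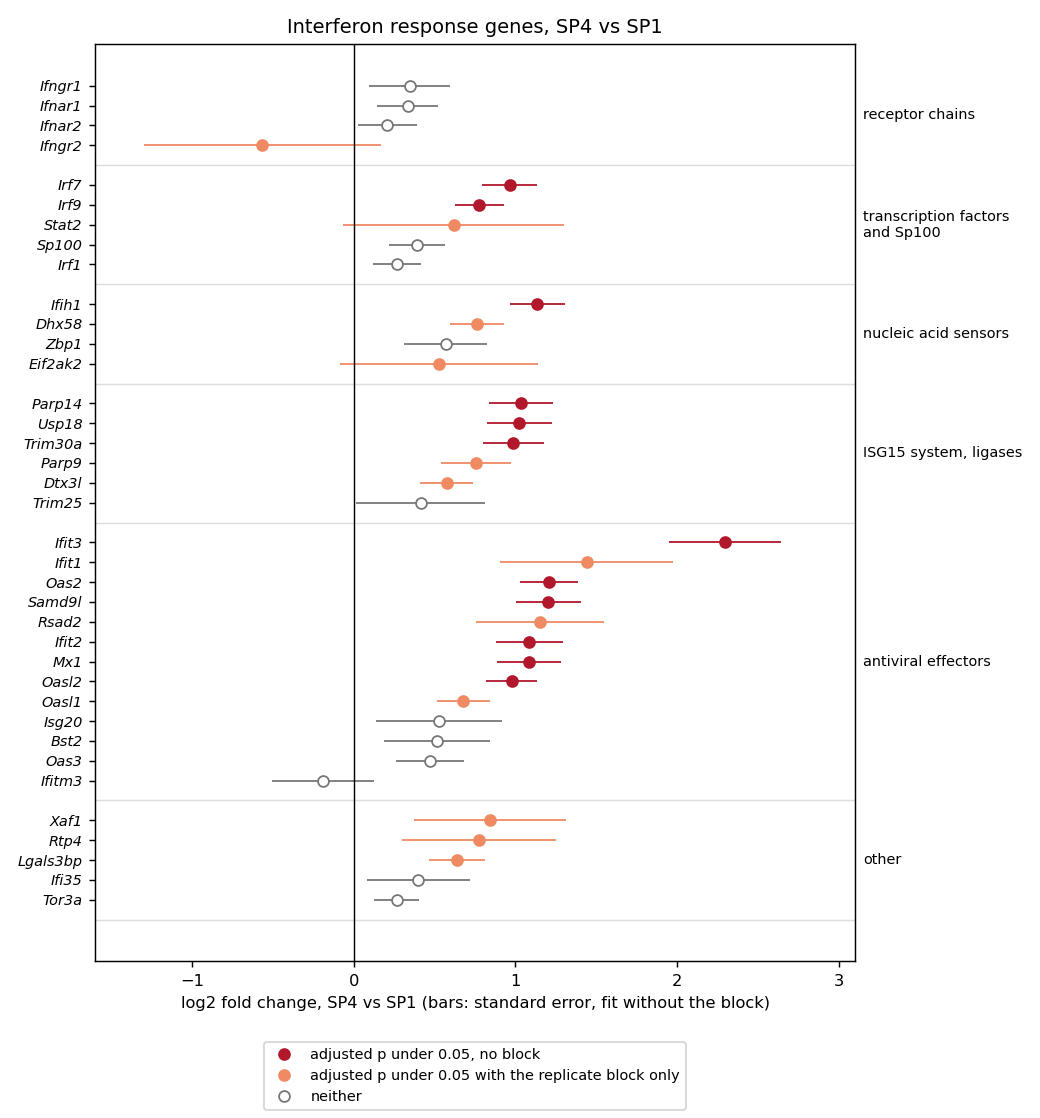
Log2 fold change between SP4 and SP1 of the 37 interferon response genes, grouped by role, with bars for the SE of the fit without the replicate block. The 12 dark red points were called without the block and the 12 orange ones with the block only. Ifit3 lies farthest to the right at 2.30, and Ifngr2 and Ifitm3 are the 2 members to the left of 0.

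The promoters of the members were searched for the ISRE and GAS elements, as a description without a test. RefSeq windows on GRCm38.p6, from 250 bases before to 50 bases after each gene's start, matched 28 of the 37 members. The ISRE core was searched as GAAANNGAAA on both strands and occurred in 10 of 28 members (35.7%), against 3.99% of 27025 genes in the same table. It was found in 7 of the 16 matched members called higher in SP4 with the block (43.8%) and in 3 of the other 12 (25.0%). The GAS letters TTCNNNGAA occurred in 9 of 28 members (32.1%), against 9.55% of all genes, with 2 of the 16 called higher (12.5%) and 7 of the other 12 (58.3%). These matches are letters in a window and not proof of binding. The members were listed as interferon response genes, so their excess over all genes does not bear on the difference between SP4 and SP1. The stretches below were chosen because Ifit3, Ifit1 and Rsad2 were among the members of largest difference and Ifih1 kept its call without any 1 array, while Stat2 encodes a part of ISGF3 itself. Ifitm3 and Bst2 carried the element but were not called. Irf7, Irf9, Ifit2, Oasl2 and Samd9l were called without the block but held no match in their windows. Capitals mark the ISRE core, which reads TTTC where it lies on the opposite strand.

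Promoter stretches, 5′ to 3′ on the strand of the gene (GRCm38.p6), were as follows.
Ifit3, chr19:34583343-34583446, plus strand: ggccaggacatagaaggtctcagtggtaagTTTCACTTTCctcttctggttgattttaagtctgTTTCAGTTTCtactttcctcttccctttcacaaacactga
Ifit1, chr19:34640755-34640843, plus strand: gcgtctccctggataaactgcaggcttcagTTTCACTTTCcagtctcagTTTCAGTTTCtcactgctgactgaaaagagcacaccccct
Rsad2, chr12:26456533-26456602, minus strand: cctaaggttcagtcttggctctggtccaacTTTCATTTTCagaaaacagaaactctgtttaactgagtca
Ifih1, chr2:62646206-62646253, minus strand: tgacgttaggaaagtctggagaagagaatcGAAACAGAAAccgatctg
Stat2, chr10:128270248-128270315, plus strand: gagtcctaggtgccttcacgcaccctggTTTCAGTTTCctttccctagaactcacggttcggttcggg
Ifitm3, chr7:141010695-141010772, minus strand: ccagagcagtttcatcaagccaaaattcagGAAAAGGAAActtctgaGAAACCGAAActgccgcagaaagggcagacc
Bst2, chr8:71537557-71537632, minus strand: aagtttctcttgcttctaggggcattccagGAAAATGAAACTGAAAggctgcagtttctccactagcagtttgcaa

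Ifit3 and Ifit1 each held 2 copies of the core. Those of Ifit3 began 156 and 122 bases before the start of the gene and those of Ifit1 104 and 85 bases before it. In Ifih1 the single copy lay 32 bases after the start. Bst2 and Ifitm3, at levels that did not part SP4 from SP1, also held 2 copies each, which overlapped in Bst2.

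By the probe sets used, the receptor chains were not called higher in SP4 than in SP1. Without the block, limma called 0 of 4, with 0 at an unadjusted p under 0.05, and with it 1 of 4, Ifngr2, was called lower. Ifnar1 had a mean intensity of 231 ± 52.9 (SD, n = 3) in SP1 and 294 ± 52.8 in SP4, and Ifnar2 of 384 ± 11.1 and 449 ± 61.8. The differences of Ifnar1 and Ifnar2 were 0.33 ± 0.19 and 0.21 ± 0.18 (log2, SE; adjusted p = 0.806 and 0.978), and their subsets overlapped. A dimmer probe set of Ifnar2 (1427691_a_at) differed by 0.50 (adjusted p = 0.31 without and 0.0455 with the block). Another of Ifnar2 (1440169_x_at) differed by 0.28 (adjusted p = 0.548 with the block). A dimmer probe set of Ifnar1 (1442222_at) differed by 0.03 (adjusted p = 0.96 with the block).

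Ifngr1 (probe set 1448167_at), the ligand-binding chain for interferon-gamma, read 593, 532 and 316 in SP1, 325, 302 and 327 in SP2, 821, 619.5 and 465 in SP3, and 633, 618 and 537 in SP4. SP2 was the lowest subset here, and all SP3 and SP4 arrays and 2 of the 3 SP1 arrays lay above it. The difference between SP4 and SP2 was 0.87 (adjusted p = 0.287 without and 0.0147 with the block), and that between SP4 and SP1 was 0.35 (adjusted p = 0.931). Ifngr2 (1423557_at), its signalling partner, read 727, 639 and 2737 in SP1, 742, 892 and 2406 in SP2, 503, 587 and 2088 in SP3, and 455, 479 and 1756 in SP4. Replicate 3 was far above replicates 1 and 2 in all subsets, so that SP1 and SP4 overlapped, while within each replicate SP4 was the lowest subset. The difference from SP1 was -0.57, with an SE of 0.73 and adjusted p = 1 without the block and an SE of 0.13 and adjusted p = 0.0268 with it. The call ended, with the block, when SP1 replicate 1 or 3 or any SP4 array was left out. A dimmer probe set of Ifngr2 (1423558_at) differed by -0.20 and was called in neither fit (adjusted p = 0.532 with the block).

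Among the transcription factors, Irf7 and Irf9 were called in SP4 versus SP1 without the block and Stat2 with it, while Irf1 and Sp100 were called in neither fit. Irf7 (1417244_a_at), which drives the second wave of interferon gene induction, read 304, 296 and 299 in SP1, 493, 328 and 409 in SP2, 428, 434 and 419 in SP3, and 589, 675 and 542 in SP4. All SP4 arrays were above all arrays of the other subsets, and all SP1 arrays were below all others. The difference was 0.96 ± 0.17, a 1.95-fold rise (adjusted p = 0.019).

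Irf9 (1421322_a_at), the DNA-binding part of ISGF3, read 416, 433 and 519.6 in SP1, 597, 697 and 616 in SP2, 490.3, 554 and 602 in SP3, and 807, 772 and 789 in SP4. SP4 lay above every other array, SP2 was intermediate, and the SP3 mean lay between those of SP1 and SP2. It rose by 0.78 ± 0.15 from SP1 to SP4 (adjusted p = 0.0344), a call that was lost when any 1 of 8 arrays was left out. Stat2 (1450403_at), which brings the activation domain to ISGF3, read 107, 111 and 25.8 in SP1, 145, 176 and 37.0 in SP2, 141, 139 and 27.3 in SP3, and 199, 163 and 45.7 in SP4. Replicate 3 was far below the others in each subset, and within all 3 replicates SP4 was above SP1. The difference of 0.62 had an SE of 0.68 and adjusted p = 1 without the block, and an SE of 0.12 and adjusted p = 0.00854 with it.

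Irf1, which is induced strongly by interferon-gamma, had a mean of 1652 ± 178 (SD, n = 3) in SP4, against 1369 ± 118 for SP1, 1346 ± 110.4 for SP2 and 1405 ± 148 for SP3 (log2 difference from SP1 to SP4 0.27, adjusted p = 0.792 without and 0.324 with the block). Sp100, a scaffold of nuclear bodies, had 734 ± 100.1 in SP4 and 559 ± 99.9 in SP1 (log2 difference 0.39, adjusted p = 0.612 and 0.117).

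Of the 4 nucleic acid sensors, 1 was called higher in SP4 than in SP1 without the block and 3 with it. Ifih1 (1426276_at), which encodes the double-stranded RNA sensor MDA5, read 261, 248 and 262 in SP1, 404, 520.0 and 423 in SP2, 328, 363 and 451 in SP3, and 632, 528 and 593 in SP4. The SP1 arrays lay close together and below all others, and SP4 lay above all others. Ifih1 rose by 1.13 ± 0.17, or 2.20-fold (adjusted p = 0.00788).

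Dhx58 (1451426_at), which encodes the related regulator LGP2, read 113, 132 and 119 in SP1, 188, 186 and 154 in SP2, 140.0, 166 and 162 in SP3, and 219, 259 and 178 in SP4. All SP4 arrays were above all SP1 arrays, with a difference of 0.76 ± 0.17 (adjusted p = 0.0615 without and 0.00309 with the block). Eif2ak2 (1422005_at), the kinase PKR that halts translation on double-stranded RNA, read 66.0, 68.0 and 228 in SP1, 91.5, 80.3 and 258 in SP2, 86.8, 82.7 and 245 in SP3, and 111, 87.9 and 367 in SP4. Here replicate 3 was the highest in every subset, and SP4 exceeded SP1 within each replicate while the subsets overlapped. Its difference was 0.53 with adjusted p = 1 without and 0.0203 with the block. Zbp1, a sensor of Z-form nucleic acids, averaged 511 ± 111 in SP1 against 768 ± 166 for SP4 (log2 difference 0.57, adjusted p = 0.63 and 0.0522), while another probe set of it (1419604_at) differed by 0.93 (adjusted p = 0.209 without and 0.00106 with the block).

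The ISG15 protease and the interferon-induced ligases and PARPs were called higher in SP4 than in SP1 for 3 of 6 members without the block and 5 of 6 with it. Usp18 (1418191_at), which removes ISG15 from proteins and dampens IFNAR2 signalling, read 186, 241 and 194 in SP1, 334, 323 and 267 in SP2, 312, 363 and 293 in SP3, and 451, 547 and 332 in SP4. SP4 lay above SP1 without overlap, the SP2 and SP3 means lay between, and the rise was 1.02 ± 0.20 (adjusted p = 0.0344). Trim30a (1417961_a_at), a tripartite motif protein, read 585, 558 and 747 in SP1, 929.9, 966 and 947 in SP2, 729.8, 816 and 1096 in SP3, and 1385, 1054 and 1349 in SP4. It rose by 0.99 ± 0.19 (adjusted p = 0.0313), and SP4 overlapped SP3 in 1 array.

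Parp14 (1451564_at), a mono-ADP-ribosyltransferase, read 221, 252 and 312 in SP1, 378, 459 and 442 in SP2, 291, 348 and 424 in SP3, and 566, 467 and 622 in SP4. All its SP4 arrays were the highest and the difference from SP1 was 1.03 ± 0.20 (adjusted p = 0.0281). Parp9 (1416897_at) and Dtx3l (1435208_at) encode an ADP-ribosyltransferase and a ubiquitin ligase that act as a pair. Parp9 read 456, 570.4 and 531 in SP1, 672, 956 and 599.9 in SP2, 578, 753 and 589.7 in SP3, and 1034, 944 and 708 in SP4. Dtx3l read 420.1, 451 and 466 in SP1, 563, 551 and 597 in SP2, 471, 496 and 679.6 in SP3, and 720.4, 639 and 654 in SP4. SP4 was above SP1 on all arrays for both, by 0.76 ± 0.22 for Parp9 (adjusted p = 0.185 without and 0.0106 with the block) and by 0.57 ± 0.17 for Dtx3l (adjusted p = 0.191 and 0.0231). Trim25, a ligase that acts on the RNA sensor RIG-I, was not called in either fit (log2 difference 0.42, adjusted p = 0.992 and 0.192).

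Antiviral effectors held the largest differences, with 6 of 13 members called higher in SP4 than in SP1 without the block, 9 with it and 0 lower, and a median log2 difference of 1.08. The IFIT proteins bind viral RNA and block its translation. Ifit3 (1449025_at) read 121, 134 and 53.3 in SP1, 179, 164 and 121 in SP2, 268, 341 and 192 in SP3, and 591, 754 and 346 in SP4. The level was higher at each step within all 3 replicates, SP1 and SP4 were far apart, and replicate 3 was the lowest throughout. The rise of 2.30 ± 0.35, or 4.92-fold, was the largest of all members (adjusted p = 0.0083 without and 6.76e-06 with the block).

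Ifit1 (1450783_at) read 134, 193 and 457 in SP1, 270.1, 236 and 671 in SP2, 236, 443 and 799.6 in SP3, and 469, 594 and 982 in SP4. Replicate 3 was the highest in each subset, and all SP4 arrays still exceeded all SP1 arrays. The difference of 1.44 had an SE of 0.54 and adjusted p = 0.431 without the block, and an SE of 0.18 and adjusted p = 0.000421 with it. Ifit2 (1418293_at) read 222, 296 and 188 in SP1, 277, 402 and 288 in SP2, 374, 383 and 322 in SP3, and 574, 525 and 437 in SP4. Its SP4 arrays were above those of all other subsets, and it rose by 1.08 ± 0.21 (adjusted p = 0.03).

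**Figure D2:**
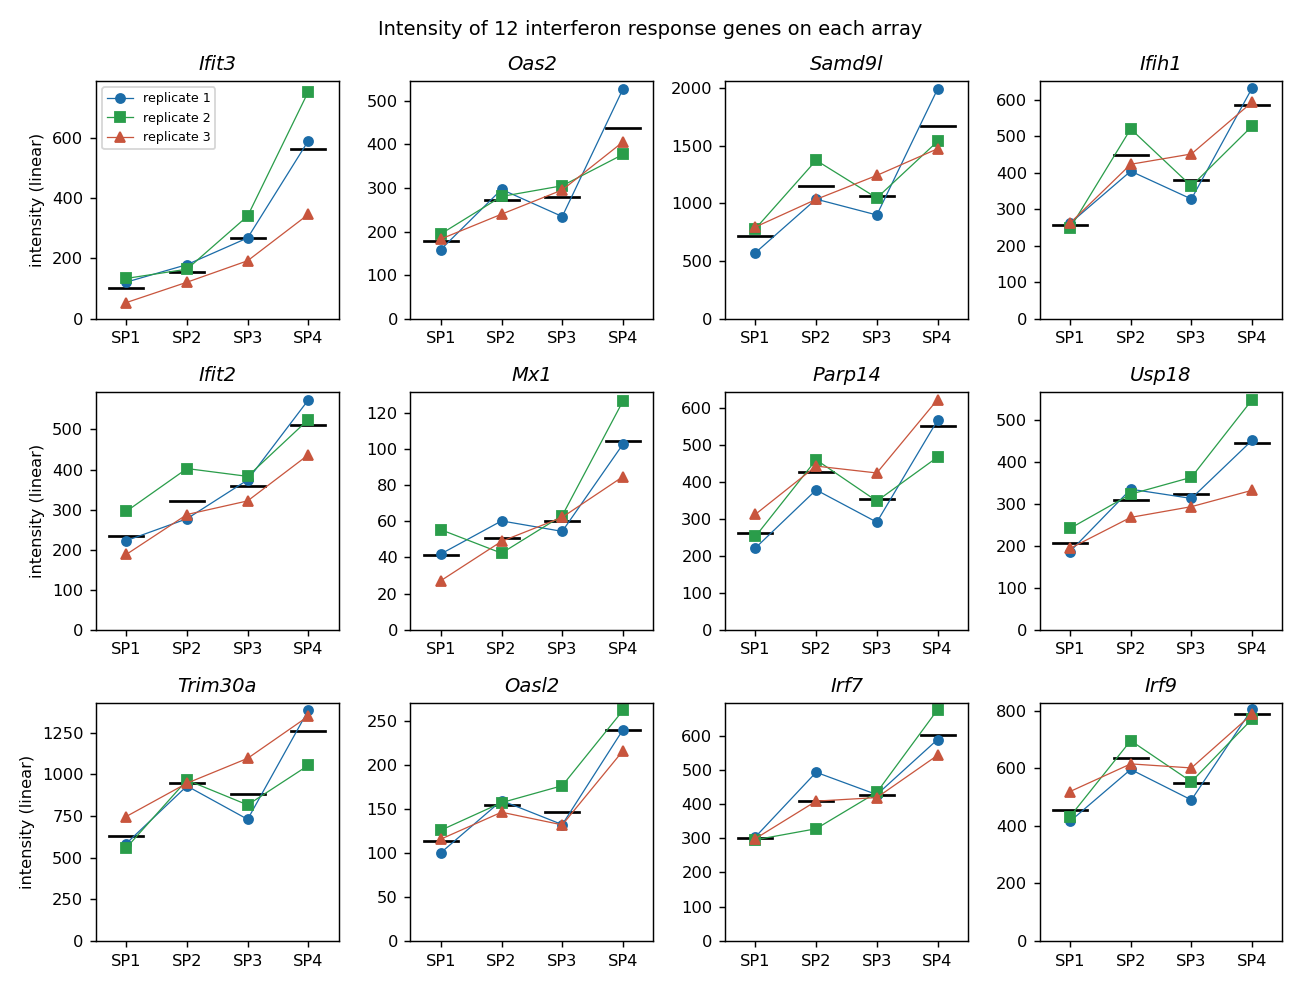
Linear intensity (y axis, from 0) of the 12 members called between SP4 and SP1 without the replicate block, in SP1 to SP4 (x axis), in order of falling difference. Points are single arrays, thin lines join arrays of 1 replicate number, and black bars are subset means. In all 12 genes the 3 SP4 points lie above the 3 SP1 points, and in Ifih1, Samd9l, Parp14, Trim30a, Oasl2 and Irf9 the SP3 mean lies below that of SP2.

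The OAS enzymes make the oligoadenylates that switch on RNase L, and the OASL proteins are their relatives. Oas2 (1425065_at) read 159, 194 and 183 in SP1, 297, 281 and 239.8 in SP2, 234, 305 and 295 in SP3, and 527, 377 and 406 in SP4. SP1 and SP4 were the lowest and highest subsets without overlap, and the rise was 1.21 ± 0.18 (adjusted p = 0.00795). Oasl2 (1453196_a_at) read 100.4, 126 and 116 in SP1, 159.8, 157 and 147 in SP2, 132, 177 and 132 in SP3, and 240.3, 262 and 216 in SP4. SP2 and SP3 overlapped and SP4 stood above both, 0.98 ± 0.16 above SP1 (adjusted p = 0.0131). Oasl1 (1424339_at) read 78.3, 92.2 and 84.4 in SP1, 99.7, 80.0 and 111 in SP2, 86.9, 103 and 119 in SP3, and 130.4, 169 and 139 in SP4. Its SP4 arrays were the highest as well, at a difference of 0.68 ± 0.17 (adjusted p = 0.102 without and 0.0117 with the block). Oas3 was dim, at 78.9 ± 9.22 in SP1 and 118 ± 33.2 in SP4, and was not called (adjusted p = 0.614 and 0.0882).

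Mx1 (1451905_a_at), a dynamin-like antiviral GTPase whose gene is disrupted in C57BL/6 mice, read 41.9, 55.3 and 27.2 in SP1, 60.2, 42.4 and 48.9 in SP2, 54.4, 63.1 and 62.2 in SP3, and 103, 126 and 84.7 in SP4. Although dim, its SP4 arrays were all above those of the other subsets, by 1.08 ± 0.20 over SP1 (adjusted p = 0.0218). Rsad2 (1436058_at), which encodes viperin, read 277, 265 and 365 in SP1, 376, 272 and 590.0 in SP2, 355, 481 and 804 in SP3, and 441, 598 and 1203 in SP4. Replicate 3 was the highest in each subset and all SP4 arrays were above all SP1 arrays (log2 difference 1.15 ± 0.39, adjusted p = 0.344 without and 0.00317 with the block). Of the dimmer probe sets of Rsad2, 1421009_at differed by 1.24 (adjusted p = 0.0197 and 0.000593) and 1421008_at by 0.88 (adjusted p = 0.75 and 0.000996). Samd9l (1460603_at), a restriction factor of poxviruses, read 572, 780.2 and 796 in SP1, 1037, 1374 and 1035 in SP2, 899.5, 1047 and 1243 in SP3, and 1991, 1538 and 1474 in SP4. SP4 was above all other subsets, by 1.20 ± 0.20 over SP1 (adjusted p = 0.0147).

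The other 3 effectors were not called in either fit. Bst2, the tetherin that holds virions at the cell surface, had 344 ± 17.3 in SP1 and 516 ± 167 in SP4 (log2 difference 0.51, adjusted p = 0.878 and 0.382). Ifitm3, which blocks virus entry, had 118 ± 5.17 and 108 ± 45.2 (log2 difference -0.19, adjusted p = 1 and 0.81). Isg20, an exonuclease, differed by 0.53 (adjusted p = 0.937 and 0.199).

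Of the 5 other interferon-induced genes, 0 were called in SP4 versus SP1 by limma without the block (1 at an unadjusted p under 0.05) and 3 were called higher with it. Xaf1 (1443698_at), a pro-apoptotic antagonist of XIAP, read 345, 418 and 714 in SP1, 588, 350.3 and 1066 in SP2, 463, 535 and 1075 in SP3, and 551, 772 and 1456 in SP4. Rtp4 (1418580_at), a receptor transporter that restrains interferon responses, read 573, 653 and 1341 in SP1, 893, 607 and 1732 in SP2, 716, 953 and 1804 in SP3, and 874, 1367 and 2152 in SP4. Both had their highest values in replicate 3, and SP4 exceeded SP1 within each replicate although the subsets overlapped. The differences were 0.84 for Xaf1 (adjusted p = 0.797 without and 0.0198 with the block) and 0.77 for Rtp4 (adjusted p = 0.856 and 0.0255).

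Lgals3bp (1448380_at), a secreted galectin-binding glycoprotein, read 374, 405 and 291 in SP1, 460.2, 387 and 385 in SP2, 407, 398 and 373 in SP3, and 558, 633 and 495 in SP4. SP4 was the highest subset without overlap, at 0.64 ± 0.17 over SP1 (adjusted p = 0.148 and 0.00854). Ifi35 and Tor3a were not called, with differences of 0.40 (adjusted p = 0.958 and 0.276) and 0.27 (adjusted p = 0.751 and 0.296).

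The median difference was above 0 at the steps to SP2 and to SP4 and close to 0 at the step to SP3. The steps share subsets and are given side by side. The member medians of the log2 differences were 0.30 for SP2 versus SP1, -0.03 for SP3 versus SP2 and 0.41 for SP4 versus SP3, with 32, 17 and 35 of 37 members above 0. Over all genes these medians were 0.01, 0.002 and -0.02. By their subset means of log2(intensity + 16), 13 members (35.1%) had a higher mean at every step, against 6.63% of all genes, among them Irf7, Usp18, Ifit1, Ifit2, Ifit3, Oas2, Mx1 and Rsad2. Another 18 (48.6%, against 20.1% of all genes) had means that went up, down and up again, among them Ifnar1, Stat2, Irf9, Ifih1, Trim30a, Parp14, Oasl2 and Samd9l. SP4 had the highest mean for 34 members and SP1 the lowest for 30, against 25.5% and 25.7% of all genes. The exceptions to the first were Ifitm3, highest in SP1, Ifngr2, highest in SP2, and Ifngr1, highest in SP3. As linear intensity, the mean of Ifngr2 was higher in SP1 (1368) than in SP2 (1347). Markers of double positive thymocytes, the stage before SP1, also varied between these subsets, with a summed intensity of 6 genes between 931 and 6500 in SP1, 628 and 2270 in SP2, 2560 and 12000 in SP3, and 1110 and 3290 in SP4. With the block, 2 of the 6 were called higher in SP3 than in SP2 and 1 lower in SP4 than in SP3, against 0 at both steps by limma without it (5 and 1 at an unadjusted p under 0.05). Their part in the order of the members was not tested.

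**Figure D3:**
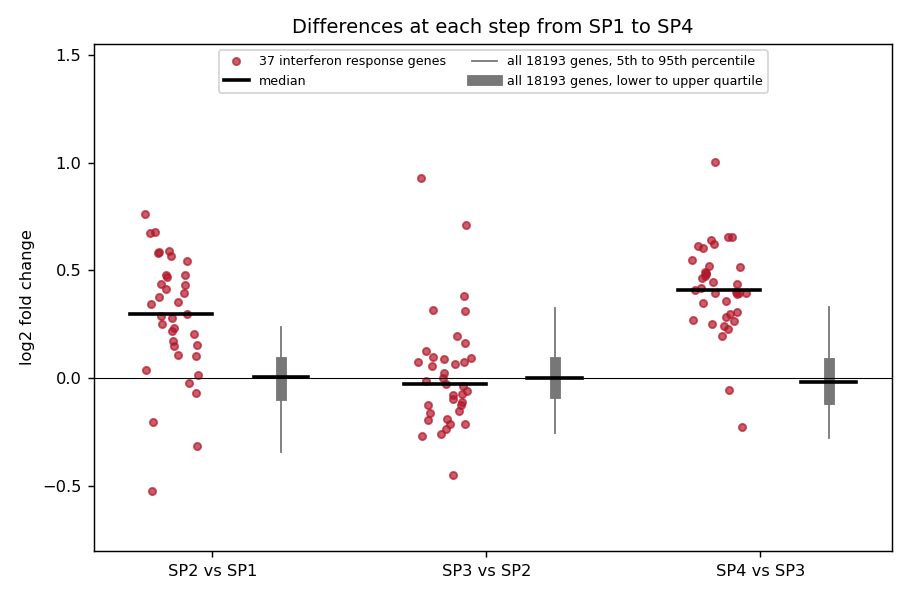
Log2 fold change of each of the 37 members (red points) at the steps from SP1 to SP2, SP2 to SP3 and SP3 to SP4, beside the spread of all 18193 genes (grey bars, lower to upper quartile and 5th to 95th percentile), with medians as black lines. The member medians were 0.30, -0.03 and 0.41.

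Single members passed the test at few of these steps. Limma without the block called 0 of 37 members in SP2 versus SP1 (0% of all genes, with 11 members at an unadjusted p under 0.05), 0 in SP3 versus SP2 (0% of all genes, 1 member) and 0 in SP4 versus SP3 (0.225% of all genes, 15 members). With the block, the calls were 0 of 37 in SP2 versus SP1 (0.0055% of all genes, 17 members at an unadjusted p under 0.05), 0 in SP3 versus SP2 (0.28%, 3 members) and 3 higher in SP4 versus SP3 (1.48% of all genes). At the step to SP2, Ifih1 had the largest difference, 0.76 (adjusted p = 1 without and 0.127 with the block), followed by Parp14 with 0.68 and Samd9l with 0.67. At the step to SP3, Ifngr1 differed by 0.93 (adjusted p = 0.0505 with the block) and Ifit3 by 0.71 (adjusted p = 0.0802), while Ifih1 was at -0.23 and Parp14 at -0.27, neither of them called.

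At the step to SP4, the 3 members called with the block were Ifit3 (1.00, adjusted p = 0.00543), Oasl2 (0.66, adjusted p = 0.0162) and Parp14 (0.62, adjusted p = 0.0457). This count was 0 without SP3 replicate 1, 1 without SP3 replicate 3, SP4 replicate 1 or SP4 replicate 3, 2 without any of 7 other arrays, and 9 without SP2 replicate 2.

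Over 2 steps, SP3 versus SP1 gave 0 calls by limma without the block (0.011% of all genes, 9 members at an unadjusted p under 0.05) and 1 with it (0.451% of all genes), namely Ifit3 at 1.30 (adjusted p = 0.00317). The latter count was 3 without SP2 replicate 2. SP4 versus SP2 gave 0 calls without the block (0.77% of all genes, 12 members at an unadjusted p under 0.05), and 6 higher and 1 lower with it (3.39% of all genes). Those higher were Ifit3 (1.71), Ifngr1 (0.87), Ifit1 (0.86), Mx1 (0.85), Ifit2 (0.65) and Oasl2 (0.58), with adjusted p between 5.47e-05 and 0.0226, and the one lower was Ifngr2 (-0.67, adjusted p = 0.0169). The count of 7 fell to 4 without SP2 replicate 3 and to 3 without SP4 replicate 2 or SP4 replicate 3.

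The members also differed in how far replicate 3 departed from replicates 1 and 2, whatever the subset. On the log2 scale and averaged over the subsets, replicate 3 was more than 1 above the mean of the other two for 5 members, namely Ifngr2 (1.83), Eif2ak2 (1.52), Ifit1 (1.23), Rtp4 (1.10) and Xaf1 (1.08), and more than 1 below it for Stat2 (-1.71). For 26 of 37 members it was within 0.5. Of all genes, 2.78% departed by more than 1. In Stat2, Eif2ak2, Ifngr2, Rtp4 and Xaf1 the subsets overlapped, while SP4 and SP1 had the same order within each replicate, and all 5 were called with the block only.

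**Figure D4:**
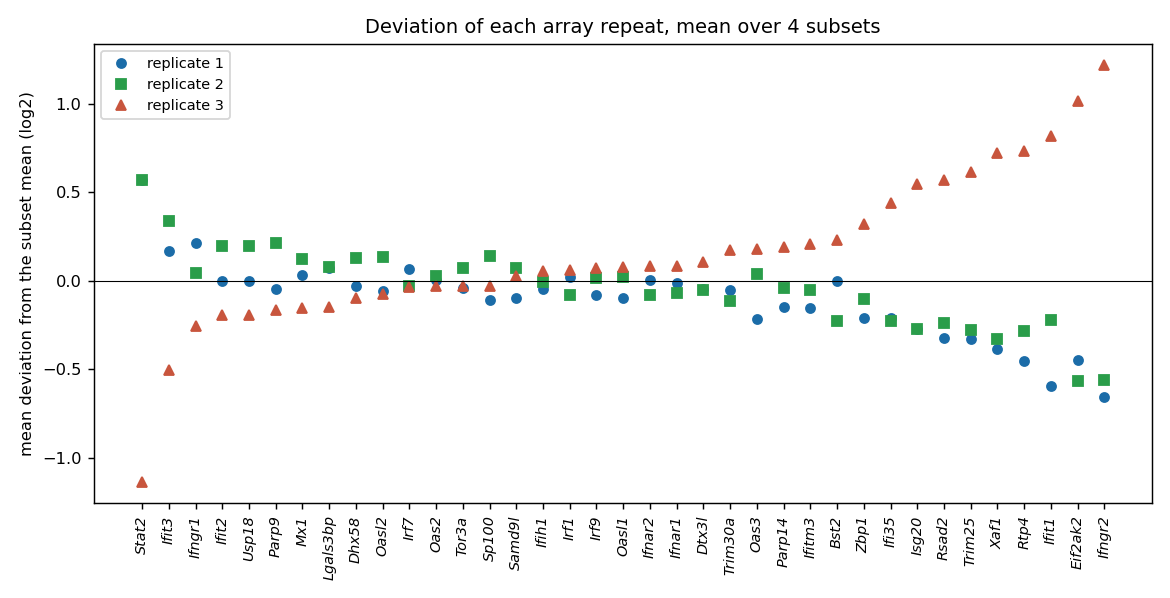
Deviation of each array from its subset mean on the log2 scale, averaged over the 4 subsets, for each replicate number (y axis) and each of the 37 members (x axis, ordered by the difference of replicate 3 from the others). Replicate 3 lies far below the others for Stat2 and far above them for Ifngr2, Eif2ak2 and Ifit1, and is within 0.5 of the mean of the other replicates for 26 members.

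Other probe sets of the same gene did not always share this departure. The intensity of replicate 3 over the mean of replicates 1 and 2 was 0.230 for the Stat2 probe set used here and 0.855 for another one (1421911_at), whose difference between SP4 and SP1 was 0.65. For Eif2ak2 the ratio was 3.26 for the probe set used and 0.661 and 0.806 for 2 others, and for Rsad2 it was 1.93 against 1.30 and 0.390. The difference between SP4 and SP1 lay above 0 for 22 of the 24 further probe sets of the members, of which 2 were called higher without the block, 10 with it, and 0 lower.

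Other genes of the pathway were read from a list of 111, of which 93 had a probe set of their own. The list was chosen with earlier results of these data known. Over all genes, 1.23% were called higher and 0.297% lower in SP4 than in SP1 without the block. With the block these shares were 4.14% and 1.89%. Of the ligands, 6 of 11 were measured. The 5 type I interferon genes among them, Ifnb1, Ifna1, Ifna2, Ifna4 and Ifna5, had subset means between 5.61 and 40.3 and limma called 0 of 5 between SP4 and SP1 (0 at an unadjusted p under 0.05). Ifng (1425947_at), the gene of interferon-gamma, read 27.0, 30.7 and 13.5 in SP1, 18.9, 8.61 and 11.9 in SP2, 14.3, 10.3 and 16.1 in SP3, and 78.9, 61.6 and 171 in SP4. All SP4 arrays stood above all others, by 1.52 ± 0.28 over SP1 (adjusted p = 0.0271).

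Among 12 measured kinases and other factors, 0 of 12 were called in SP4 versus SP1 by limma without the block, with 2 at an unadjusted p under 0.05 (3 were called higher with it, namely Stat3, a cytokine signal transducer, by 0.75, Irf4, by 1.19, and Irf8, by 1.01). Jak1, Jak2 and Tyk2, the receptor kinases, differed by 0.51, 0.24 and 0.30 and were called in neither fit. Of 7 measured genes listed as signalling inhibitors, not all of them particular to interferon, Socs3 rose by 2.02 (adjusted p = 0.0285) and Ubash3b by 1.11 (adjusted p = 0.0148). Socs1, an inhibitor of interferon receptor signalling, fell by 0.96 (adjusted p = 0.0382).

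A further 68 interferon-induced genes of the list were measured. Of these, 10 were called higher in SP4 than in SP1 without the block, against 1.23% of all genes, and 27 with it, against 4.14%. In both fits 0 were called lower, and the median log2 difference was 0.43. The 10 were Oas1a (1.37), which belongs to the oligoadenylate synthetases, Herc6 (1.17), the ISG15 ligase of mice, Tap1 (0.85), a peptide transporter that also belongs to the MHC class I pathway, Mndal (0.97), Trim34a (1.17), Phf11d (0.91), Rnf213 (1.18), Ms4a6b (1.93), Ms4a4b (1.70) and Ms4a4c (1.23). Those called with the block only were Oas1c, Ifi27l2a, Ifi203, Aim2, Cmpk2, Ddx58, Ddx60, Adar, Pml, Nlrc5, Shisa5, Epsti1, Tnfsf10, Daxx, Calhm6, Stat4 and Uba7, with log2 differences between 0.31 and 1.49.

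Markers of other cells moved with SP4 as well. Their lists, too, were chosen with earlier results of these data known. Over all genes, 1.23% were called higher in SP4 than in SP1 without the block and 4.14% with it. The summed intensity of 8 measured NKT and innate-like T cell markers was between 324 and 699 on the SP1, SP2 and SP3 arrays and between 1760 and 2760 on the SP4 arrays, and 6 of 8 were called higher in SP4 than in SP1 without the block and 7 with it, among them Il18r1 (log2 difference 3.18), Il4 (2.94) and Zbtb16 (2.77), the gene of PLZF. The summed intensity of 5 markers of activated or memory T cells was between 315 and 623 in SP1 to SP3 and between 1600 and 1820 in SP4, with 2 of 5 called higher without the block and 5 with it. For 8 myeloid and dendritic markers the sum was between 234 and 823 in SP1, 237 and 402 in SP2, 364 and 414 in SP3, and 729 and 1310 in SP4, with 0 called by limma without the block (2 at an unadjusted p under 0.05) and 1, Itgam, with it. Itgam was dim, with means of 9.48 in SP1 and 14.8 in SP4, below the array medians. In SP4 versus SP2, limma called 0 of the 8 without the block (3 at an unadjusted p under 0.05). With it, 3 were called higher, against 3.39% of all genes called in either direction. These were Tyrobp (2.45), Fcer1g (1.17) and Cd68 (0.97), with adjusted p between 0.0182 and 0.0402. The mean of Tyrobp was 143 in SP1, 56.9 in SP2 and 352 in SP4.

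Plasmacytoid dendritic cells are known for their type I interferon. Of 8 of their markers, limma called 0 higher in SP4 than in SP1 without the block (3 at an unadjusted p under 0.05). With it, 2 were called higher, Siglech and Irf8, and Ccr9 was called lower in both fits. In SP4 versus SP2, limma called Siglech (1.70) and Irf8 (1.72) higher without the block (adjusted p = 0.0128 and 0.0189), and Ccr9 lower. Of all genes, 0.77% were called there in either direction. Siglech was at 62.5 ± 26.2 (SD, n = 3) in SP1 and 159 ± 27.2 in SP4 (log2 difference 1.21, adjusted p = 0.052 without and 0.00434 with the block). Ccr9 is also a gene of young thymocytes, Bst2 is itself a member, and Irf8 is counted in both lists. B cell markers summed to between 139 and 537 in SP1 and 177 and 375 in SP4, and regulatory T cell markers to between 2180 and 3570 in SP1 and 2240 and 3760 in SP4, with 1 of 5, Foxp3, called higher without the block and 2, Foxp3 and Ctla4, with it. Erythroid markers summed to between 15.7 and 23.3 and epithelial and stromal markers to between 139 and 218 on all arrays. The part of these cells in the levels of the interferon response genes was not tested.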

How the data were processed

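Affymetrix Mouse Genome 430 2.0 arrays were read from the deposited table, in which the authors gave linear intensity values per probe set after background correction and normalization between arrays. The methods name RMA and the submitters' notes name MAS5, with versions not given in the sources used here. Raw scans were not reprocessed.

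An offset of 16 was added before log2, and 1 mean per subset was fitted to 12 arrays and 45037 probe sets with limma 3.58.1 in R 4.3.3 (eBayes with trend, 8 residual degrees of freedom, 6 with the block). Benjamini-Hochberg adjustment covered all probe sets of a comparison, for 6 comparisons, and genes were counted by 1 probe set each. The SAM test of the methods was not run. With 3 arrays per subset, labelled as biological replicates, their number limits the precision.

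Same-numbered arrays deviated together (r between 0.279 and 0.883 over 18 pairs, against -0.812 to 0.729 over 36 others). In the study's own supplementary values, each of its 3 array repeats matched 1 replicate number, with all 3795 values within 2%. The numbers therefore pair the arrays.

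The members and lists were chosen with earlier results of these data known. All 12 values are printed for members called in any comparison in either fit, and other pathway genes are named where called in SP4 versus SP1. The fits were tested on simulated data. Alternatives were the replicate block, offsets of 1 and 64, a minimum mean of 50, quantile normalization, other probe set rules, fewer arrays and no trend. Others, named as such in the closing section, were added after seeing the data.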

Additional observations from a re-analysis of the deposited data

How the results depend on the processing

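The number of interferon response genes called in SP4 versus SP1 was 12 with offsets of 1 and 64 and with quantile normalization. It was also 12 without probe sets of the _x_at and _s_at kinds where a gene had another. Genes with only such probe sets kept them, here and in the settings below. The number was 13 with a minimum mean intensity of 50, and 14 with the mean of all probe sets of a gene or without the variance trend. With the replicate block it was 24, and in the fit to only the 6 arrays of both subsets it was 0. Leaving out 1 array gave between 3 and 12 without the block and, as settings added after seeing the data, between 15 and 25 with it. Further settings added after seeing the data were the block together with the mean of all probe sets or without _x_at and _s_at probe sets, which gave 24 each, the block with quantile normalization, which gave 25, and array repeat 3 left out, which gave 14 without and with the block, among them all 12 genes called from all arrays.

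For SP4 versus SP2, no member was called from all arrays without the block and 7 were called with the replicate block, 1 with an offset of 64, 1 with the mean of all probe sets, and 3 with repeat 3 left out, without and with the block. With the block, 12 were called with the mean of all probe sets, and 7 with quantile normalization or without _x_at and _s_at probe sets. Leaving out 1 array gave between 0 and 1 without the block, where the 1 arose without SP1 replicate 3 or SP4 replicate 3, and between 3 and 8 with it. For SP4 versus SP3 the counts were 0 without the block, 3 with the replicate block, 1 with repeat 3 left out in either fit, and with the block 5 with the mean of all probe sets, 3 without _x_at and _s_at probe sets and 2 with quantile normalization. Leaving out 1 array gave 0 without the block and between 0 and 9 with it. For SP3 versus SP1 the count was 1 with the replicate block, also with the mean of all probe sets, without _x_at and _s_at probe sets or with quantile normalization, and between 1 and 3 when 1 array was left out. For SP3 versus SP2 it was 1 with repeat 3 left out in either fit, and between 0 and 1 when 1 array was left out of the fit with the block. For SP2 versus SP1 it was 0 in all settings run.

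The direction of 3 of the 37 members in SP4 versus SP1 turned when 1 array was left out of the fit without the block. Ifngr2 ranged from -1.19 without SP4 replicate 3 to 0.095 without SP1 replicate 3 on the log2 scale (adjusted p = 0.988 for the latter), Ifitm3 from -0.41 without SP4 replicate 2 to 0.15 without SP4 replicate 1 (adjusted p = 0.984 for the latter), and Eif2ak2 from -0.052 without SP4 replicate 3 (adjusted p = 0.995) to 1.05 without SP1 replicate 3. The cause was not tested. In SP4 versus SP1, the replicate block changed the call of 12 of the 24 members called in either fit, and the other 13 members were called in neither.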
